A study of Mus musculus with 6 samples.

Results

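The 40 genes described here carry out antigen presentation by the major histocompatibility complex (MHC), and they were listed by name: the class I heavy chains of the K, D, Q, T and M regions, their light chain, the proteins that make, move and load class I peptides, the class II chains with their helpers, and both transactivators. All 40 were found among the 35297 genes of the deposited tables, 39 of them with at least 1 read, and 34 had enough reads to be tested. They were followed in bone marrow-derived mast cells (BMMCs) of naive wild type mice, cultured with stem cell factor, TGF-β1, IL-3 and IL-9 and harvested on day 20. Libraries S9, S10 and S11 came from BALB/c cells, which carry the MHC haplotype d, and S12, S13 and S14 from C57BL/6 cells, which carry haplotype b. No other allele or treatment separates the groups in the labels, and the sources used here do not give the age of the bone marrow donors. The libraries of a strain are described there as biological replicates, without a statement of which mouse or culture each came from, so the p-values measure the spread between these libraries. The comparison asks which of the genes differ in RNA level between mast cells of the 2 strains.

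Class I molecules sit on nearly all nucleated cells and show peptides from the cell's own proteins to CD8+ T cells. The peptides are cut by the proteasome, carried into the endoplasmic reticulum (ER) by the TAP transporter, trimmed there by Erap1 and loaded onto a heavy chain paired with β2-microglobulin. Class II molecules show peptides from endocytosed material to CD4+ T cells: an α and a β chain assemble with the invariant chain Cd74, and the DM proteins, held back by the DO proteins, exchange the remnant of that chain for a peptide. Class II genes depend on the transactivator Ciita and many class I genes on its relative Nlrc5. Mast cells carry class I, while their class II levels are known to be low unless the cells are stimulated.

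Of the 34 tested genes, 3 were higher in C57BL/6 BMMCs past both thresholds (adjusted p under 0.05 and more than 2-fold; 8.82%, against 7.73% of the 12461 genes tested), and 9 were lower (26.5%, against 5.54%). By the adjusted p alone, 11 were higher (27.0% of all genes were) and 14 lower (25.9% of all genes were), and 9 did not pass. The median absolute log2 fold change of the tested members was 0.67, beside 0.24 over all genes tested. Of the 12 genes past both thresholds, 6 had passed the filter on low counts through 1 strain alone, which largely fixes such calls in advance. These were H2-Q1, H2-Q2 and Cd74 through BALB/c, and H2-DMb1, H2-Ob and Nlrc5 through C57BL/6. Of the 28 genes with reads enough in both strains, 6 were lower in C57BL/6 and 0 higher past both thresholds, as with DESeq2. Of all 12012 such genes, 4.1% were lower and 6.09% higher. In edgeR's test 8 of the 28 were higher and 11 lower at an unadjusted p under 0.05. The same 19 passed the adjusted p, beside 27.0% higher and 25.9% lower of all genes tested. Log2 fold changes are C57BL/6 over BALB/c, with standard errors, folds taken from summed reads name the higher strain, and adjusted p-values come from the quasi-likelihood test of edgeR, adjusted after Benjamini and Hochberg over all genes tested. CPM are estimated reads scaled to library size after TMM correction.

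**Figure D1:**
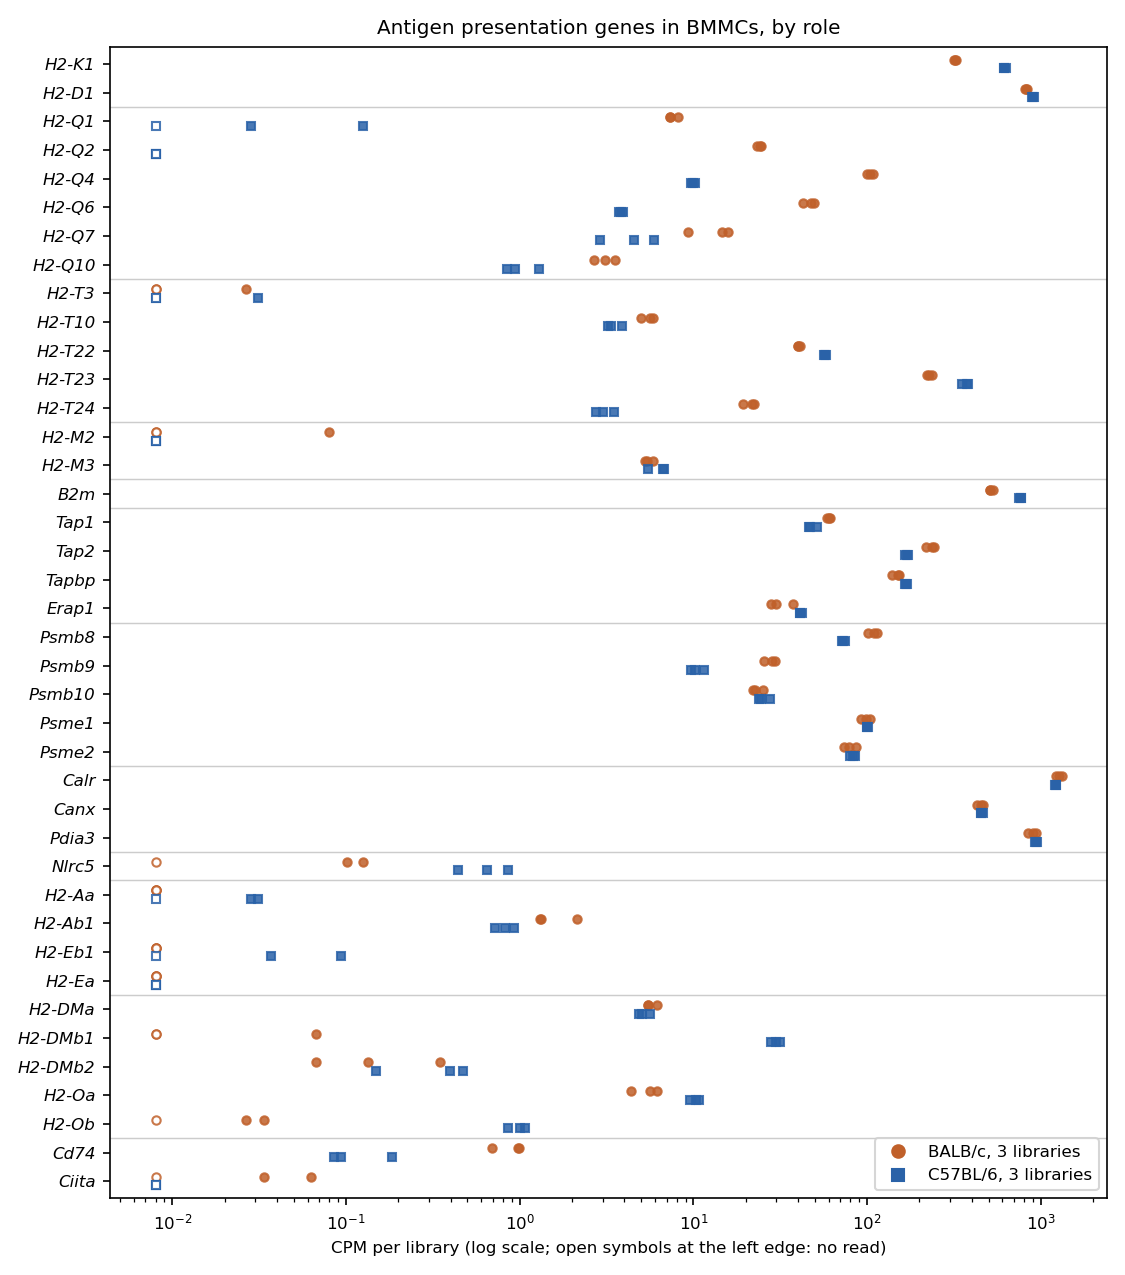
CPM of each of the 40 genes in each library on a log axis, with BALB/c as circles and C57BL/6 as squares. Grey lines part the roles and open symbols at the left edge stand for libraries without a read. The Q region genes sit to the left in C57BL/6, H2-DMb1 has 0 or 2 reads in BALB/c libraries, and class II chains lie near the bottom of the range in both strains.

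Libraries held between 28273312 and 37100759 reads on genes. The labelled cell type was checked against marker genes, and all 10 mast cell markers passed the filter, with a summed level from 30763 to 33662 CPM in BALB/c and from 33772 to 35911 CPM in C57BL/6. Of these, the tryptase gene Tpsb2 (log2 fold change 2.32 ± 0.12, adjusted p = 5.16e-07) and Hdc (log2 fold change 1.19 ± 0.19, adjusted p = 7.35e-04) were higher in C57BL/6 past both thresholds, Kit, Fcer1a and Ms4a2 higher and Cma1 and Mitf lower by the adjusted p alone, and Cpa3, Gata2 and Il1rl1 did not pass the test. The tables' transcripts are RefSeq transcripts, which follow the C57BL/6 genome for most genes. For genes as variable as those of the MHC, a difference in RNA level and a difference in how well BALB/c reads match these transcripts cannot be told apart, and neither can fewer cells of a type and less RNA per cell. Many class I genes also share sequence, so that Salmon may divide their reads in different ways in each strain. Sums over such genes are therefore given beside the single values.

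Class I heavy chains that present to CD8+ T cells were abundant in both strains. H2-K1 (chr17:34214987-34219321, reverse strand, GRCm39) had 315, 325 and 318 CPM in S9, S10 and S11 and 609, 616 and 629 CPM in S12, S13 and S14. Every C57BL/6 library lay far above every BALB/c library, and the change stayed just short of 2-fold (1.93-fold higher, log2 fold change 0.95 ± 0.03, adjusted p = 5.86e-08). H2-D1 (chr17:35481691-35486475, forward strand), the other classical heavy chain gene, had 811, 831 and 816 CPM in BALB/c and 892, 899.9 and 907 CPM in C57BL/6. The groups did not overlap and the step was small (log2 fold change 0.13 ± 0.03, adjusted p = 0.00596). The log2 fold change was -0.010 with plain library sizes and -0.044 on log2(TPM + 1), scalings that moved the median gene by -0.14 and -0.17, and with that shift taken off it stayed at 0.13 in each. H2-D1 shares 16.8% of its 31-base words with H2-K1, and their summed reads differed by a log2 fold change of 0.41 ± 0.03. BALB/c mice also carry H2-L, a further classical gene that C57BL/6 mice lack. It was not among the genes matched and was not analysed here. Whether its reads fell on related entries, such as H2-D1, H2-K1 or Q region genes, in BALB/c libraries was not tested.

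The heavy chain genes of the Q region, which encode non-classical Qa molecules, were low in C57BL/6. All 6 were lower in C57BL/6 past both thresholds, where 5.54% of all genes were, and H2-Q1 and H2-Q2 had passed the filter through BALB/c alone. The other 4 had a median log2 fold change of -2.50, beside -0.01 over the 12012 genes with reads enough in both strains, of which 4.1% were lower past both thresholds. The largest in reads was H2-Q4 (chr17:35598586-35604274, forward strand) with 99.3, 108 and 104 CPM in BALB/c against 9.92, 10.2 and 9.63 CPM in C57BL/6 (log2 fold change -3.39 ± 0.05, adjusted p = 2.47e-10). H2-Q6 (chr17:35643777-35655332, forward strand), a gene of the Qa-2 group, had 42.7, 49.3 and 47.4 CPM against 3.94, 3.73 and 3.81 CPM (log2 fold change -3.60 ± 0.08, adjusted p = 2.86e-09). In both genes the strains stood about an order of magnitude apart while the libraries of a strain lay close together.

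H2-Q2 (chr17:35561087-35566181, forward strand) had 23.3, 24.1 and 24.5 CPM in BALB/c, which is 743, 718 and 922 reads, and no read in any C57BL/6 library. Set against a limit of 3 counts per library, it was at least 249-fold higher in BALB/c (adjusted p = 3.17e-08), and its fitted fold change depends on the prior count. H2-Q1 (chr17:35539381-35544075, forward strand) had 258, 219 and 274 reads in BALB/c and 4, 0 and 1 in C57BL/6. From the summed reads it was 143-fold higher in BALB/c, with a 95% interval from 61 to 441 that covers counting error only (adjusted p = 3.56e-07). Of the 5 C57BL/6 reads, 4 were in S12, and without that library the fitted log2 fold change went from -7.06 to -8.58. Both genes were thus close to absent in C57BL/6 at this depth.

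The remaining Q region genes had smaller fold changes. H2-Q7 (chr17:35658131-35662749, forward strand), of the Qa-2 group, had 9.27, 14.6 and 15.7 CPM in BALB/c and 5.91, 4.55 and 2.91 CPM in C57BL/6 (log2 fold change -1.57 ± 0.26, adjusted p = 8.60e-04), and it missed a test against a 2-fold change itself (adjusted p = 0.0822). H2-Q10 (chr17:35780959-35785460, forward strand), known as a secreted heavy chain of the liver, had only 2.67, 3.09 and 3.51 CPM against 0.939, 1.29 and 0.847 CPM (log2 fold change -1.60 ± 0.21, adjusted p = 1.90e-04). The copies H2-Q5, H2-Q6 and H2-Q7 share sequence, and their summed reads gave a log2 fold change of -2.77 ± 0.12. With H2-Q4, H2-Q10 and H2-K2 added, at a looser limit on shared words chosen after the data were seen, the sum gave -3.0 ± 0.06, and H2-Q1 with H2-Q2 gave -9.12 ± 0.23, which again depends on the prior count. The sums over copies were thus lower in C57BL/6 too. They leave out H2-K1 and H2-D1, with which H2-Q4 shares 11.75% and 8.58% of its words. The words are of reference transcripts, so BALB/c reads of such genes placed on Q region entries would not show in these sums.

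Other H2 genes, outside the list of 40, were followed as well. Of 17, 5 were tested, and 3 were lower in C57BL/6 past both thresholds (60%, against 5.54% of all genes), 1 of them through a filter passed in BALB/c alone. H2-K2, a neighbour and relative of H2-K1, had 34.3, 34.5 and 34.3 CPM in BALB/c and 4.38, 5.69 and 5.45 CPM in C57BL/6 (log2 fold change -2.73 ± 0.09, adjusted p = 3.29e-08). H2-Q5 (log2 fold change -2.29 ± 0.13, adjusted p = 1.01e-06) and H2-Bl, with 6.28 CPM in BALB/c and 2 reads in 1 library of C57BL/6, the gene that passed the filter through BALB/c alone, were lower too. The pseudogene H2-T-ps was higher in C57BL/6 (log2 fold change 1.74 ± 0.11, adjusted p = 2.35e-06), and H2-Ke6, which encodes a steroid dehydrogenase and no MHC chain, did not pass the test (log2 fold change -0.10 ± 0.06, adjusted p = 0.234).

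The stretch of 250 bases before the start of a gene is shown for 5 heavy chain genes, because H2-K1 and H2-D1 were high in both strains while H2-Q2, H2-Q4 and H2-Q6 were low or absent in C57BL/6. The sequences are RefSeq's, of build GRCm38.p6, so they are those of the C57BL/6 reference and say nothing of BALB/c bases. They read 5′ to 3′ along the gene, and capitals mark matches, on either strand, to TTTCACTTC (the core of the interferon-stimulated response element of class I genes), GGGATTCCC (the κB site of their enhancer A), TGACGC (found in a site bound by CREB and ATF proteins) and CCAAT or its complement ATTGG (the box bound by NF-Y).
H2-K1 (chr17:34000348-34000597, reverse strand): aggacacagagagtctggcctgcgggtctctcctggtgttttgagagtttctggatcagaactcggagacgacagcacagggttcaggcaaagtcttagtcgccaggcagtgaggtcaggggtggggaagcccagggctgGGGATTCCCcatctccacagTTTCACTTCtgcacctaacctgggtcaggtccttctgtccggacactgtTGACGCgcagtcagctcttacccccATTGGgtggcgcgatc
H2-D1 (chr17:35262844-35263093, forward strand): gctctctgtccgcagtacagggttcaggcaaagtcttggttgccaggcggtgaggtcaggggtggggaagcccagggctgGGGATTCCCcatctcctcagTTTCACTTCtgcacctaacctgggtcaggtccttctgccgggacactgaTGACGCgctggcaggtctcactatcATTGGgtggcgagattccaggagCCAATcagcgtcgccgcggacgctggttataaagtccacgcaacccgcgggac
H2-Q2 (chr17:35342057-35342306, forward strand): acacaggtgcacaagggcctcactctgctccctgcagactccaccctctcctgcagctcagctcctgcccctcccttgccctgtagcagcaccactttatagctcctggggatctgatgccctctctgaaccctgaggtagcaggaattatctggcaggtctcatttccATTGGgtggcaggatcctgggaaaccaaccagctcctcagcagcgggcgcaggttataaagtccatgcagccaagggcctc
H2-Q4 (chr17:35379367-35379616, forward strand): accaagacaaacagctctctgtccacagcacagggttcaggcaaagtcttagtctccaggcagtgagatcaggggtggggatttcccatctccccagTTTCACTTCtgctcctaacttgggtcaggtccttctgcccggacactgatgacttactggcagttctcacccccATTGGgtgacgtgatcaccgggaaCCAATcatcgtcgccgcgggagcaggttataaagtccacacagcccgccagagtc
H2-Q6 (chr17:35424600-35424849, forward strand): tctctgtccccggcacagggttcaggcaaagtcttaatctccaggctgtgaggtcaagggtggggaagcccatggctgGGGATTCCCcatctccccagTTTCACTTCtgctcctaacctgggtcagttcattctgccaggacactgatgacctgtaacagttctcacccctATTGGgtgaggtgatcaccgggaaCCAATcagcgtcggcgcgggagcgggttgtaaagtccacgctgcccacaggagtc
None of the matches overlap in these windows. H2-K1 and H2-D1 hold all 4 motifs, H2-Q6 lacks TGACGC, H2-Q4 lacks TGACGC and GGGATTCCC, and H2-Q2 holds only ATTGG. Promoter entries were found for 31 of the 40 genes, 12 of them heavy chains, and not for Cd74, Ciita, H2-Ab1, H2-Ea, H2-Q1, H2-T10, H2-T24, Nlrc5 and Tap2. TTTCACTTC was in 7 of the 12 heavy chain windows (H2-D1, H2-K1, H2-M3, H2-Q4, H2-Q6, H2-Q7 and H2-Q10) and in 0.429% of all 27025 windows of this length. GGGATTCCC was in 4 (H2-D1, H2-K1, H2-Q6 and H2-Q7) and in 0.315% of all. TGACGC was in 3 (H2-D1, H2-K1 and H2-M3) and in 6.14% of all, and CCAAT in 10 and in 34.5% of all. A match is a run of letters and not a measured site. H2-Q6 and H2-Q7, which hold TTTCACTTC and GGGATTCCC as H2-K1 does, were lower in C57BL/6, where H2-K1 was higher. The windows show the C57BL/6 reference only, and a link of the motifs to the strain differences was not tested.

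T region genes, which encode molecules such as Qa-1, did not move together. H2-T23 (chr17:36340229-36345571, reverse strand), the Qa-1 heavy chain read by NKG2 receptors of natural killer cells, had 221, 236 and 227 CPM in BALB/c and 375, 382 and 351 CPM in C57BL/6 (1.62-fold higher, log2 fold change 0.70 ± 0.04, adjusted p = 2.05e-06). H2-T22 (chr17:36348020-36353650, reverse strand), a ligand of some γδ T cell receptors, had 40.9, 39.7 and 39.9 CPM against 57.7, 56.2 and 56.8 CPM (log2 fold change 0.50 ± 0.04, adjusted p = 5.88e-06). H2-T24 (chr17:36314363-36331485, reverse strand) went the other way, with 19.2, 22.3 and 21.7 CPM in BALB/c and 3.5, 2.74 and 2.99 CPM in C57BL/6 (log2 fold change -2.77 ± 0.11, adjusted p = 1.11e-07), and was the T region gene past both thresholds. H2-T10 (chr17:36426768-36432357, reverse strand) had 4.96, 5.84 and 5.59 CPM against 3.22, 3.88 and 3.36 CPM (log2 fold change -0.65 ± 0.12, adjusted p = 0.00192), but it shares 47.5% of its words with the more abundant H2-T22. The reads of both together were higher in C57BL/6 (log2 fold change 0.40 ± 0.04), so the direction of H2-T10 alone is uncertain. H2-T3 had 1 read in S11 and 1 in S12. Of the M region genes, H2-M3, which presents formylated peptides, had 5.84, 5.37 and 5.27 CPM and 5.45, 6.69 and 6.78 CPM with overlapping groups (log2 fold change 0.20 ± 0.12, adjusted p = 0.182), and H2-M2 had 3 reads in S11 and 0 elsewhere.

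Summed over the 15 heavy chain genes, class I reads were 1603, 1672 and 1636 CPM in BALB/c and 1967, 1987 and 1974 CPM in C57BL/6, a log2 ratio of 0.27. On TPM, which divides by length and is needed to compare genes, the sums were 1569 ± 33.1 and 1727 ± 29.1 (SD, n = 3), a log2 ratio of 0.14. Values of TPM moved the median gene by -0.17 on log2(TPM + 1), and neither the CPM nor the TPM sums of the strains overlapped. The make-up of the sum shifted as well. The Q region genes made up 10.6, 11.4 and 11.4% of heavy chain TPM in BALB/c and 1.08, 0.99 and 0.827% in C57BL/6. H2-K1 went from 19.6% ± 0.12 to 30.5% ± 0.574 (SD, n = 3), H2-T23 from 18.1% ± 0.178 to 23.5% ± 0.929, and H2-D1 from 47.4% ± 0.461 to 41.8% ± 0.45. An exact permutation test of such a value, at 3 libraries per strain, has a smallest two-sided p of 0.1, so these shares are given without a test.

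**Figure D2:**
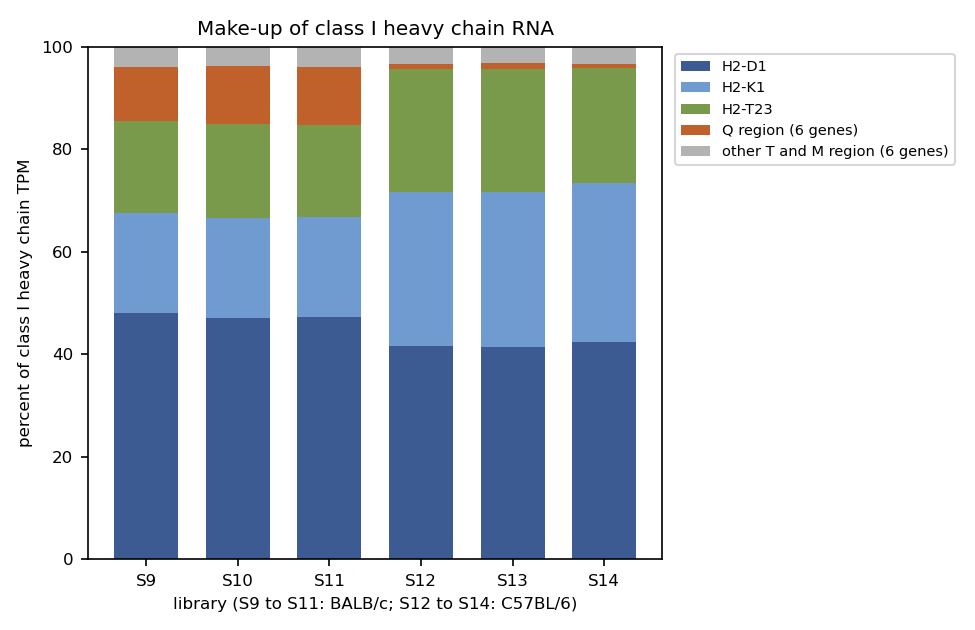
Share of each class I heavy chain gene or region in the summed TPM of the 15 heavy chain genes, in percent, as 1 stacked bar per library. The Q region block takes between 10.6% and 11.4% in BALB/c libraries and between 0.827% and 1.08% in C57BL/6 libraries, while the H2-K1 block is wider in C57BL/6.

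The light chain β2-microglobulin (B2m, chr2:121977957-121983594, forward strand), which every class I heavy chain needs to reach the surface, was higher in C57BL/6. It had 511, 532 and 509.8 CPM in BALB/c and 770.0, 751 and 766 CPM in C57BL/6 (log2 fold change 0.56 ± 0.03, adjusted p = 1.68e-06). Per unit of B2m TPM the heavy chains summed to 1.43, 1.44 and 1.47 TPM in BALB/c and 1.21, 1.25 and 1.22 TPM in C57BL/6, so the heavy to light chain ratio of RNA was lower in every C57BL/6 library.

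The genes that move, load and trim class I peptides differed by less than 2-fold. Tap1 (chr17:34405996-34416199, forward strand) and Tap2 (chr17:34422501-34435829, forward strand), the chains of the peptide transporter, were both lower in C57BL/6. Tap1 had 58.6, 61.5 and 60.2 CPM against 46.8, 46.4 and 51.2 CPM (log2 fold change -0.32 ± 0.05, adjusted p = 5.11e-04), and Tap2 217, 234 and 241 CPM against 169, 171 and 165 CPM (log2 fold change -0.46 ± 0.05, adjusted p = 3.94e-05). Tapasin (Tapbp, chr17:34134873-34148267, forward strand), which bridges the transporter and the heavy chain, had 139.5, 152 and 149.9 CPM in BALB/c and 170.0, 165 and 167 CPM in C57BL/6 (log2 fold change 0.19 ± 0.04, adjusted p = 0.00515), and the test was not passed with plain library sizes (0.042, adjusted p = 0.434) or on log2(TPM + 1) (0.010, adjusted p = 0.851). The trimming peptidase Erap1 (chr13:74787687-74841320, forward strand) was higher in C57BL/6, with 30.0, 27.8 and 37.6 CPM against 41.3, 40.8 and 42.3 CPM (log2 fold change 0.38 ± 0.10, adjusted p = 0.00985), and under the same scalings was at 0.24 and 0.27 before the shift of the median gene is taken off (adjusted p = 0.0593 and 0.0711). A predicted Erap1 transcript took 0, 0 and 377 estimated reads in BALB/c and 257, 182 and 0 in C57BL/6, so its assignment varied within each strain. For the ER chaperones that fold class I, Calr, Canx and Pdia3, the strains overlapped and the test was not passed, though on log2(TPM + 1) they were lower in C57BL/6 with adjusted p from 0.00148 to 0.0492, the median gene being shifted there as given for H2-D1. Calr, the most abundant of them, had 1278, 1217 and 1317 CPM and 1219.8, 1198 and 1224 CPM (log2 fold change -0.07 ± 0.04, adjusted p = 0.172), while the log2 fold change was 0.03 ± 0.04 for Canx, at 449 ± 18.1 and 457 ± 7.19 CPM, and 0.07 ± 0.04 for Pdia3, at 891 ± 47.2 and 935 ± 11.2 CPM (SD, n = 3).

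Of the immunoproteasome, which interferon induces and which cuts peptides suited to class I, the subunits encoded beside the Tap genes were lower in C57BL/6. Psmb9 (chr17:34400960-34406738, reverse strand) had 25.3, 29.4 and 28.4 CPM in BALB/c and 11.5, 9.68 and 10.2 CPM in C57BL/6, without overlap and past both thresholds (log2 fold change -1.41 ± 0.09, adjusted p = 1.59e-06). Psmb8 (chr17:34416690-34420428, forward strand) had 102, 114 and 109.7 CPM against 74.4, 72 and 72.4 CPM (log2 fold change -0.57 ± 0.05, adjusted p = 1.10e-05). The subunit Psmb10 on chromosome 8 did not pass the test, with 21.9, 22.6 and 25.3 CPM and 24, 27.5 and 24.5 CPM (log2 fold change 0.12 ± 0.08, adjusted p = 0.226). The chains of the proteasome activator PA28 did not pass it either: Psme1 had 98 ± 5.9 and 100.1 ± 0.694 CPM (SD, n = 3, log2 fold change 0.03 ± 0.05, adjusted p = 0.62) and Psme2 79.5 ± 5.99 and 82.4 ± 2.8 CPM (log2 fold change 0.05 ± 0.06, adjusted p = 0.486). In both genes the libraries of the strains overlapped.

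Nlrc5 (chr8:95160984-95253900, forward strand), the transactivator of class I genes, was close to the limit of detection. It had 4, 3 and 0 reads in BALB/c and 14, 23 and 23 in C57BL/6, and from the summed reads was 9.01-fold higher in C57BL/6 (95% interval 4.11 to 23.4, counting error only, adjusted p = 0.00257). The fitted log2 fold change of 3.10 became 3.72 without S9 and 2.45 without S11. The call was lost on log2(TPM + 1), where the log2 fold change was 0.14, on log2(TPM + 0.1), where it was 0.90, and with unmatched transcripts kept as features (adjusted p = 0.0563).

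**Figure D3:**
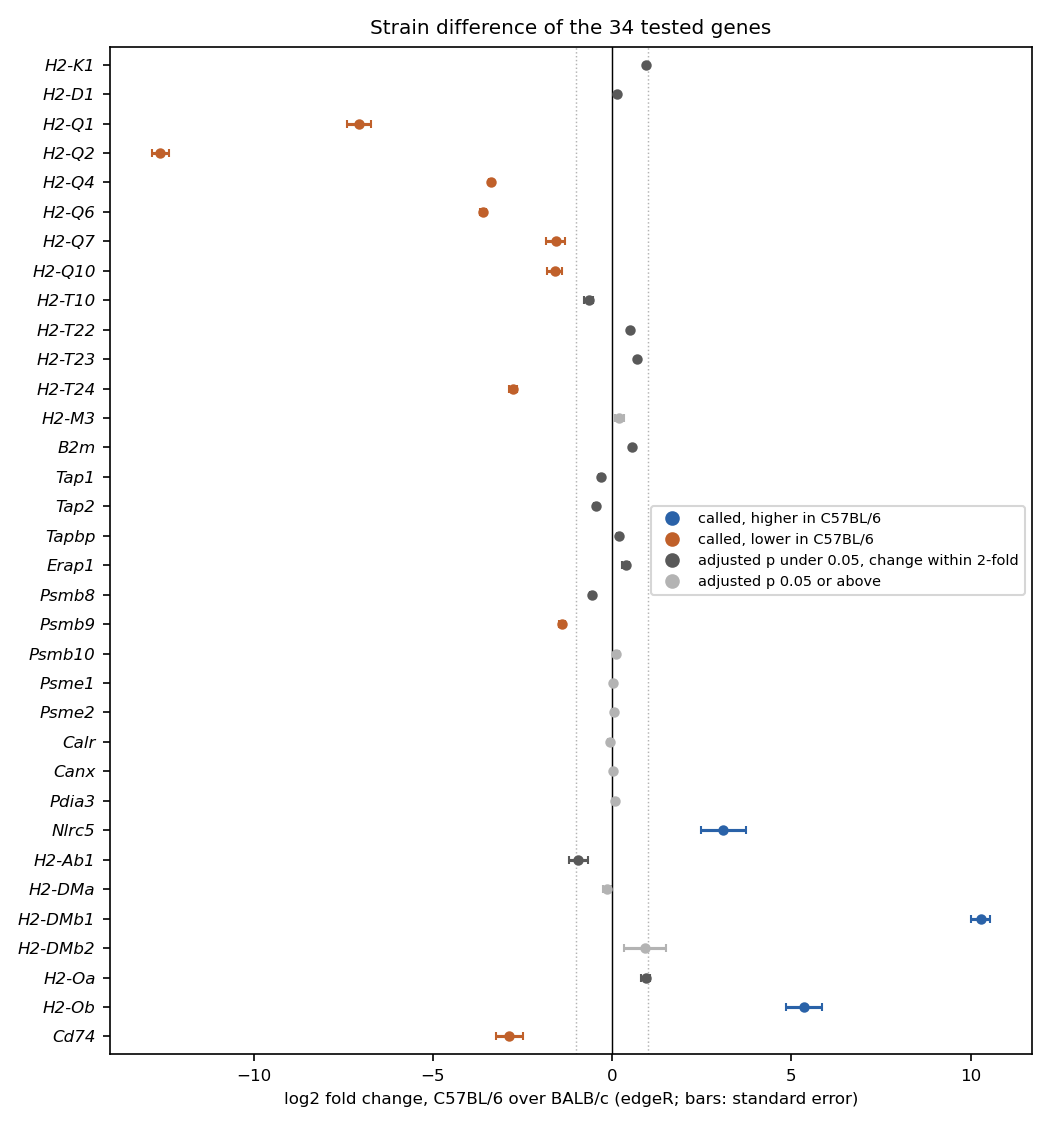
Strain difference as log2 fold change (positive where C57BL/6 is higher) for the 34 tested genes in order of role, with standard errors from edgeR as bars and dotted lines at 2-fold. The Q region genes lie left of the lower line, H2-DMb1, H2-Ob and Nlrc5 lie right of the upper one, and the ER chaperones lie on 0. For H2-Q2, with no read in C57BL/6, the fitted value depends on the prior count.

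The class II chains were hardly detected in either strain. H2-Ab1 (chr17:34476663-34488393, forward strand), the β chain of H2-A, had 42, 64 and 49 reads in BALB/c and 23, 25 and 29 in C57BL/6, which is 1.32, 2.15 and 1.3 CPM against 0.72, 0.924 and 0.819 CPM (log2 fold change -0.95 ± 0.27, adjusted p = 0.015). The groups did not overlap and the change was just short of 2-fold, with the highest value in S10. Without S10 the log2 fold change was -0.68 and the test was missed (adjusted p = 0.0543), as it was without S12 (adjusted p = 0.0547). It went past 2-fold when S9, S11 or S13 was left out, with log2 fold changes of -1.06, -1.08 and -1.03. Its partner H2-Aa had no read in BALB/c and 1, 0 and 1 reads in C57BL/6, H2-Eb1 no read in BALB/c and 3, 1 and 0 in C57BL/6, and H2-Ea no read in any library, which allows between 0.0798 and 0.111 CPM per library. Haplotype b is known to carry a deletion that silences H2-Ea. Summed, the 4 class II chains reached 1.32, 2.15 and 1.3 CPM in BALB/c and 0.845, 0.961 and 0.847 CPM in C57BL/6. Ciita had 2, 1 and 0 reads in BALB/c and none in C57BL/6, on 1 of its 9 transcripts. The invariant chain Cd74 (chr18:60936899-60945731, forward strand) had 22, 29 and 37 reads in BALB/c and 3, 5 and 3 in C57BL/6, and was 7.61-fold higher in BALB/c from the summed reads (95% interval 4.05 to 15.8, counting error only, adjusted p = 2.06e-04).

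Among the DM and DO genes 1 strain difference stood out. H2-DMb1 (chr17:34372046-34379204, forward strand), a β chain of the peptide exchanger DM, had 0, 2 and 0 reads in BALB/c and 897, 854 and 1061 in C57BL/6, the latter 28.1, 31.6 and 30.0 CPM. From the summed reads it was 1478-fold higher in C57BL/6, with a 95% interval from 409 to 12209 for counting error only (adjusted p = 6.95e-09). Both BALB/c reads were in S10, and the fitted log2 fold change of 10.28 became 12.93 without S10 and 9.68 without S11. Its neighbour H2-DMb2 (chr17:34362197-34370529, forward strand), which shares 27% of its words with H2-DMb1, had 11, 2 and 5 and 15, 4 and 14 reads, with overlapping groups (log2 fold change 0.91 ± 0.60, adjusted p = 0.229). Reads of both genes together were 0.345, 0.134 and 0.133 CPM in BALB/c and 28.5, 31.7 and 30.4 CPM in C57BL/6, and the sum had a log2 fold change of 7.20. The α chain H2-DMa (chr17:34338515-34358958, forward strand) was at 6.12, 5.47 and 5.48 CPM and 5.04, 5.62 and 4.83 CPM and did not pass the test (log2 fold change -0.14 ± 0.11, adjusted p = 0.297). In C57BL/6 the β chain was thus above the α chain per length (33.8 ± 1.28 against 3.57 ± 0.0984 TPM, SD, n = 3), while in BALB/c it was 0.0287 ± 0.0497 against 4.52 ± 0.362 TPM.

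The 250 bases before the H2-DMb1 and H2-DMb2 starts (RefSeq, GRCm38.p6, capitals as above) are shown because these neighbouring copies were so unequal in C57BL/6 BMMCs.
H2-DMb1 (chr17:34152941-34153190, forward strand): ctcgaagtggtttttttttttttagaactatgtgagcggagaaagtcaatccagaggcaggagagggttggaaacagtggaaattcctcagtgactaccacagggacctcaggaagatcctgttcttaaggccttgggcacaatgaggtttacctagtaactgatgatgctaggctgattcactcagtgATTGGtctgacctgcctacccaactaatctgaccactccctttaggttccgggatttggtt
H2-DMb2 (chr17:34144999-34145248, forward strand): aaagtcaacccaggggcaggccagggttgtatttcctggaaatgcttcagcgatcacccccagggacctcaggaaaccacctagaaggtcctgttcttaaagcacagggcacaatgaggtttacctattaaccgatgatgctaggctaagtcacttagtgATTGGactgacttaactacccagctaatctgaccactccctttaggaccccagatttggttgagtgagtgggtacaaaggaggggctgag
Each window holds ATTGG once and none of the other 3 motifs.

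The DO genes, which restrain DM and are best known from B cells, were higher in C57BL/6. H2-Oa (chr17:34311314-34314328, forward strand) had 4.37, 6.14 and 5.64 CPM in BALB/c and 9.54, 10.4 and 10.8 CPM in C57BL/6 (log2 fold change 0.93 ± 0.13, adjusted p = 2.79e-04), just short of 2-fold and past it without S10 (log2 fold change 1.03). H2-Ob (chr17:34457836-34473388, forward strand) had 0, 1 and 1 reads against 32, 23 and 38, and from the summed reads was 48.9-fold higher in C57BL/6 (95% interval 13.2 to 409.6, counting error only, adjusted p = 2.11e-05). Markers of cells that carry class II by default were measured beside these values. The summed level of 9 dendritic cell markers was from 7.76 to 8.59 CPM in BALB/c and from 37.1 to 38.9 CPM in C57BL/6, nearly all of it Itgax, with Clec9a, Siglech and Cd209a at 0 in every library. That of 8 macrophage markers was from 0.705 to 1.63 CPM and from 13.3 to 13.9 CPM, with Adgre1 and Cd68 tested, both higher in C57BL/6, and C1qa, C1qb, C1qc and Csf1r at 0. The B cell markers Cd79a, Cd79b, Pax5 and Ms4a1 summed to at most 0.235 CPM in a BALB/c and 0.282 CPM in a C57BL/6 library, with no more than 6 reads for a gene in a library and Ms4a1 at 0. The 8 basophil markers summed to between 406 and 418 CPM in BALB/c and between 512 and 523 CPM in C57BL/6. Of 6 T or NK cell markers, Cd3e, Cd3d and Cd3g were at 0, Gzmb, a granule protease that mast cells are also known to make, had 792 to 946 CPM, and the sum ran from 798 to 944 CPM in BALB/c and from 934 to 951 CPM in C57BL/6. Of the basophil markers, Mcpt8, Prss34, Cebpa and Ccl9 were higher in C57BL/6 past both thresholds and Ms4a3 by the adjusted p alone, Prss34 and Cebpa having passed the filter through C57BL/6 alone. Il18r1 was lower (log2 fold change -0.54 ± 0.12, adjusted p = 0.00415), and Cd200r3 and Itga2 did not pass the test. Itgax, Adgre1, Mcpt8 and Ccl9 moved in the direction of H2-DMb1 and H2-Ob, and their part in these differences was not tested.

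Reads also fell on different transcripts of a gene in the 2 strains. Of the 40 genes, 22 have a single transcript in the tables, and for 11 with 2 or more transcripts and at least 100 reads in every library the shares were compared. In 3 of these, H2-K1, H2-T22 and Tapbp, a transcript's share differed by more than 10 percentage points without overlap of the strains. The same count was not made over all genes, so 3 of 11 cannot be called more or less than usual. For H2-T22 the transcript of 1784 bases took 63.7, 54.7 and 55.7% of reads in BALB/c and 2.04, 0.533 and 0.346% in C57BL/6, and that of 1706 bases 18.6, 22.9 and 27.5% and 68.1, 72.8 and 66.5%. For H2-K1 a transcript of 1656 bases took 11.9, 10.7 and 13.1% in BALB/c and 0 reads in C57BL/6, while the main one of 1669 bases took 75.8, 76.5 and 73.4% and 89.4, 90.0 and 90.1%. For Tapbp the transcript of 2750 bases took 54.4, 48.8 and 45% of BALB/c reads and 37.5, 33.7 and 36.2% of C57BL/6 reads, and the transcript that differs by 3 bases in length took the rest. Salmon estimates such shares from the bases in which transcripts differ, and strain variants lie among the same bases, so use of a transcript and match of an allele cannot be told apart.

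**Figure D4:**
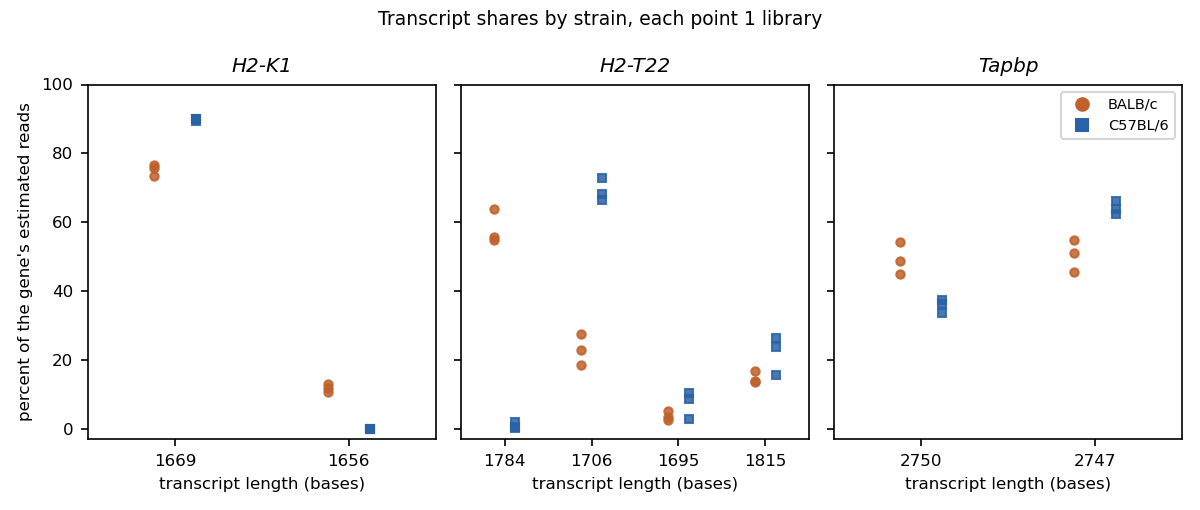
Percent of a gene's estimated reads on each transcript with at least 5% in a library, by transcript length in bases, with 1 point per library (circles BALB/c, squares C57BL/6). The strains separate for the 1784- and 1706-base transcripts of H2-T22, for both H2-K1 transcripts and for both Tapbp transcripts.

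Per length, the order of the genes was led by the same names in both strains. B2m stood first, with 1084 ± 31.9 TPM in BALB/c and 1406 ± 46.4 TPM in C57BL/6 (SD, n = 3), followed by Calr and H2-D1. In the order of levels down to H2-T23 at place 6, no 2 neighbours overlapped between libraries in either strain, whereas Psme1, Psme2, Canx and Psmb8, at places 7 to 10 in BALB/c, each overlapped the next. H2-K1 was at place 5 in BALB/c, below Pdia3, and at place 4 in C57BL/6, above it. H2-DMb1 moved from place 33 to place 14, H2-Q2 from 19 to 37 and H2-Q4 from 12 to 20.

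Of the 40 genes, 29 lie on chromosome 17 in the MHC region, and 24 of them were tested. Of these 24, 2 were higher and 8 lower in C57BL/6 past both thresholds (8.33% and 33.3%, beside 7.73% and 5.54% of all genes), and of the 10 tested on other chromosomes 1 was higher and 1 lower (10% each). Of the 20 on chromosome 17 with reads enough in both strains, 0 were higher and 6 lower, against 6.09% and 4.1% of such genes overall. The stretch from Tapbp to H2-M2 holds 82 other tested genes that are neither members nor H2 genes. Of these, 3 (3.66%) were higher and 6 (7.32%) lower past both thresholds, beside 7.73% and 5.54% of all genes. Among genes with reads enough in both strains, the median absolute log2 fold change was 0.22 for 78 of these neighbours and 0.81 for the 20 members. The members were not shown to differ more than their neighbours, since this was not tested.

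**Figure D5:**
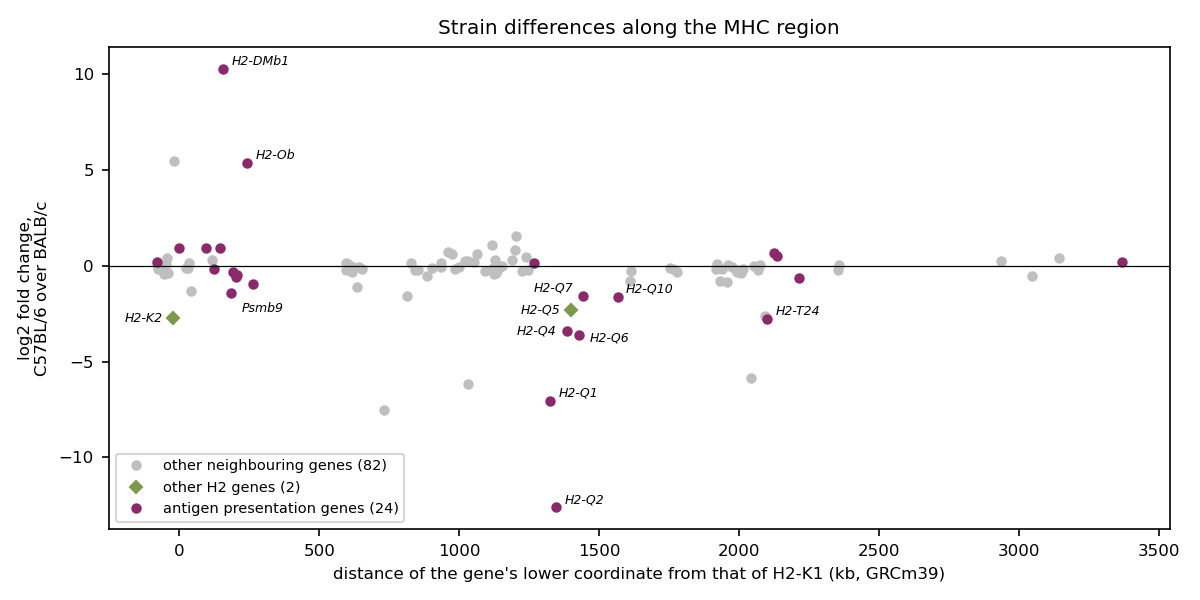
Log2 fold change, positive where C57BL/6 is higher, against the distance in kb of tested genes from H2-K1 along chromosome 17, for 24 antigen presentation genes, 2 other H2 genes and 82 neighbouring genes. The other H2 genes drawn are H2-K2 and H2-Q5, while H2-Bl, H2-T-ps and H2-Ke6 were tested and are not drawn. Most neighbours lie near 0, the Q region genes form a low column from H2-Q1 to H2-Q10, and H2-DMb1 and H2-Ob stand high near H2-K1.

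Genes that act with these 40 were followed in lists of 80 genes in all, of which 60 were tested, with 6 higher and 4 lower past both thresholds (10% and 6.67%, near the shares over all genes). None of the 7 class II regulators, such as Rfx5 and Nfya, passed both thresholds. Among 11 class I regulators and genes of the interferon axis, Irf8, a transcription factor of myeloid cells, was higher in C57BL/6 (0.377, 0.0671 and 0.0798 CPM against 5.13, 5.06 and 6.55 CPM, log2 fold change 4.99 ± 0.38, adjusted p = 6.57e-06), as was Ifngr2 at 0.271 and 0.561 CPM (log2 fold change 1.02 ± 0.34, adjusted p = 0.0328). Both had reached the filter's minimum in 1 BALB/c library only, for Irf8 S9, without which its log2 fold change became 6.16. The Ifngr2 call was lost under 12 of 15 alternatives, among them DESeq2 (adjusted p = 0.161) and S9, S10, S11, S13 or S14 left out in turn (adjusted p from 0.0626 to 0.123). None of the 6 genes of the constitutive proteasome and its other activators passed both thresholds. Of 5 tested class I-like molecules, Cd1d1, which presents lipids to NKT cells, was higher in C57BL/6 (1.73, 1.78 and 1.65 CPM against 6.42, 5.77 and 6.21 CPM, log2 fold change 1.84 ± 0.12, adjusted p = 2.35e-06). None of 11 further genes of peptide loading and trimming and none of 9 genes of class II peptide making passed both thresholds. In these 4 lists of 33 tested genes DESeq2 also called 0 past both thresholds, and 21 had an unadjusted p under 0.05 in edgeR's test, 20 an adjusted one. Of all genes tested, 27.0% were higher and 25.9% lower by the adjusted p alone. Of 6 tested costimulatory genes, the OX40 ligand Tnfsf4 was lower in C57BL/6, with 21.6, 28.7 and 26.3 CPM in BALB/c and 2.0, 1.92 and 1.61 CPM in C57BL/6 (log2 fold change -3.80 ± 0.14, adjusted p = 6.55e-08). The PD-1 ligand Pdcd1lg2 was higher (4.43, 2.78 and 3.62 CPM against 15.1, 16.5 and 14.9 CPM, log2 fold change 2.10 ± 0.14, adjusted p = 2.99e-06), and so was Cd86 at a low level (0.161 and 0.56 CPM, log2 fold change 1.76 ± 0.34, adjusted p = 0.00222). Cd86 passed the filter through C57BL/6 alone, and its call was lost on log2(TPM + 1) (log2 fold change 0.24), on log2(TPM + 0.1) (0.99) and against a 2-fold change (adjusted p = 0.0867).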

How the data were processed

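RNA of BALB/c and C57BL/6 BMMCs on day 20 was analysed, with 3 libraries per strain. The authors checked reads with FastQC 0.11.5 and assigned them to transcripts with Salmon 0.8.2. The deposited tables hold estimated counts, which need not be whole, and TPM values that the authors' tool divided by effective length. The paper names Ensembl transcripts of GRCm39, and the tables list RefSeq accessions. Of 129698 transcripts, 106440 (82.1%) matched a gene symbol without version through a RefSeq table of assembly GRCm38.p6, and the others, with 2.69% to 3.12% of reads, were left out. Of 100 transcripts of the 40 genes, 77 matched in the same version. Coordinates are GENCODE's (vM39, GRCm39).

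Estimated counts were summed by gene, rounded and tested with edgeR 4.0.16 (R 4.3.3): TMM factors, a minimum count of 10, the quasi-likelihood test, and Benjamini-Hochberg adjustment over 12461 genes. The common biological coefficient of variation was 0.0665. Library number, and for genes with few reads depth, limits precision. Genes past both thresholds or above a mean of 50 CPM were named in full, and at most 4 genes per other list. Members and lists were chosen with earlier results of these data known. Alternatives used DESeq2 1.42.0 and limma 3.58.1. The test was tried on simulated data, as was the comparison of 31-base words of transcripts that found genes sharing sequence. Lung samples, RT-qPCR and protein assays were not analysed here. The level of a single marker gene is left out here.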

Additional observations from a re-analysis of the deposited data

How the results depend on the processing

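Of 714 alternative values of the 44 named fold changes, 662 kept their direction and their side of the joint thresholds (adjusted p and 2-fold), 21 lost a call and 8 gained one. In 23 the direction turned, 18 of them in Psme1, Psme2, Canx, Pdia3 and Psmb10, which did not pass the test, 15 of these with plain library size or TPM and not once the shift of all genes is taken off. That of H2-D1 turned with plain library size (-0.010 on the log2 scale), log2(TPM + 1) (-0.044) and log2(TPM + 0.1) (-0.044), scalings that moved the median gene by -0.14, -0.17 and -0.18, and with this shift taken off it did not turn. That of H2-T10 turned when its reads were summed with those of H2-T22 (0.40 at both limits on shared words). By the adjusted p alone, 36 values in 12 genes changed side. With plain library size, log2(TPM + 1) or both, H2-D1, Tapbp and Erap1 no longer passed it, and Psme1, Calr, Canx, Pdia3 and H2-DMa passed it, lower in C57BL/6. Members higher and lower past both thresholds, 3 and 9, became 11 and 14 by the adjusted p alone. Those higher became 0 with at least 10 reads required in every library, which leaves H2-DMb1, H2-Ob and Nlrc5 untested, and 1 on log2(TPM + 1), which shrinks genes with few reads. Those lower became 5 when copies were summed at 15% of words, which leaves fewer units to count. Over all genes, 963 higher and 690 lower became 3361 and 3227 by the adjusted p alone, 613 and 404 with at least 10 reads in every library, and 434 and 365 on log2(TPM + 1), and those lower became 390 in a test against a 2-fold change. Other pathway genes, 6 higher and 4 lower, became 25 and 16 by the adjusted p alone, and those higher 3 with at least 10 reads in every library. The summed class I log2 ratio of 0.27 became 0.13 with plain library size, 0.14 on summed TPM and 0.24 over all H2 class I genes, and without each library in turn lay between 0.26 and 0.29. The summed class II ratio of -0.85 lay between -0.97 and -0.57 without each library. On log2(TPM + 1) the calls of H2-Ob and Cd74 were lost as well, as were those of Nlrc5, Ifngr2 and Cd86, at 0.56, -0.94, 0.14, 0.18 and 0.24. For H2-Ab1, H2-Oa, Ifngr2 and Cd86 the cause of the changed calls was not tested. No paired analysis was possible because the libraries of the strains share no replicate number. Depth limits Nlrc5, H2-Ob, Cd74, Ciita and the class II chains, which rest on few reads.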
